A study of Mus musculus with 4 samples.

Results

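ERV1 and Gypsy are minor families of LTR retrotransposons in the mouse genome, and their reads were counted in 4 rows of a table of repeat families named ERV1, ERV1?, Gypsy and Gypsy?. The 4 rows were chosen by name out of 47 families in the table, 9 of which are LTR families. 5' ends of RNAs were profiled by nanoCAGE, a method meant to read capped 5' ends from small amounts of RNA. The samples were fully grown oocytes, 2-cell embryos at 48 h, 8-cell embryos at 68 h and blastocysts at 92 h. The labels give F1 C57BL/6J X CBA/H crosses as the strain of every sample. Each stage was 1 sample, read in runs numbered 1.1, 1.2 and 2, or 1 and 2 in the 2-cell embryo. Whether such runs repeat 1 library or hold separate pools of cells is not stated in the labels. Each stage was taken as a single sample, so no p-value or SD was computed between stages, and the spread of runs may be technical.

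LTR retrotransposons are flanked by long terminal repeats, which carry a promoter and can start transcripts of the element or of a gene nearby. ERV1 holds the class I endogenous retroviruses, which are related to gammaretroviruses such as murine leukaemia virus. Gypsy elements are abundant in plants and insects, while in mammals they persist as old, degraded copies and as a few genes derived from them. In the naming of repeats a question mark stands for an uncertain assignment to a family. The other large LTR families of the mouse are ERVK, which holds IAP elements, ERVL, which holds MERVL, and MaLR, whose MT elements are known as promoters in oocytes.

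In all 11 runs together ERV1 had 70658 counts, Gypsy 896, ERV1? 141 and Gypsy? 73. ERV1 held 3.68% of the counts of LTR families and was the fourth largest of the 9, after MaLR at 60.4%, ERVK at 24.3% and ERVL at 11.6%. Gypsy held 0.0467% and was the fifth. ERV1 and Gypsy had counts in all 11 runs, ERV1? in 9 and Gypsy? in 10.

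The depth of the runs set how well each row could be measured. Run totals over all families ranged from 36922 to 1919263 counts, so that a count of 3 corresponded to 0.00813% of the shallowest run (blastocyst run 1.2) and 0.000156% of the deepest (oocyte run 1.2). Transposon families took 37.9% to 95.1% of the counts of a run, and ribosomal RNA (rRNA) took 0.807% to 44.9%, with the highest values in oocyte run 1.1 and, at 26.5%, in 8-cell run 2. Median scores of the read placements ran from 15 to 54. Exact (Clopper-Pearson) 95% intervals given below cover counting error alone.

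ERV1 was a small but well-counted family at every stage. Its share of all counts was 1.16% (1.13% to 1.19%), 1.24% (1.22% to 1.25%) and 1.40% (1.37% to 1.44%) in oocyte runs 1.1, 1.2 and 2. In 2-cell runs 1 and 2 it was 1.95% (1.89% to 2.01%) and 1.29% (1.25% to 1.33%). The 2-cell embryo thus had one run within the range of the oocyte and one above it. The ERV1 share was 3.04% (2.89% to 3.20%), 2.41% (2.31% to 2.52%) and 1.61% (1.59% to 1.64%) in 8-cell runs 1.1, 1.2 and 2. In blastocyst runs 1.1, 1.2 and 2 it was 2.06% (1.93% to 2.20%), 3.37% (3.18% to 3.56%) and 1.80% (1.72% to 1.89%). Every 8-cell and blastocyst run lay above every oocyte run, while the ranges of the 2-cell, 8-cell and blastocyst runs overlapped. Within the 2-cell, 8-cell and blastocyst stages the highest run exceeded the lowest 1.51-fold, 1.89-fold and 1.87-fold, against 1.21-fold in the oocyte. In each stage the intervals of the highest and the lowest run did not overlap.

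**Figure D1:**
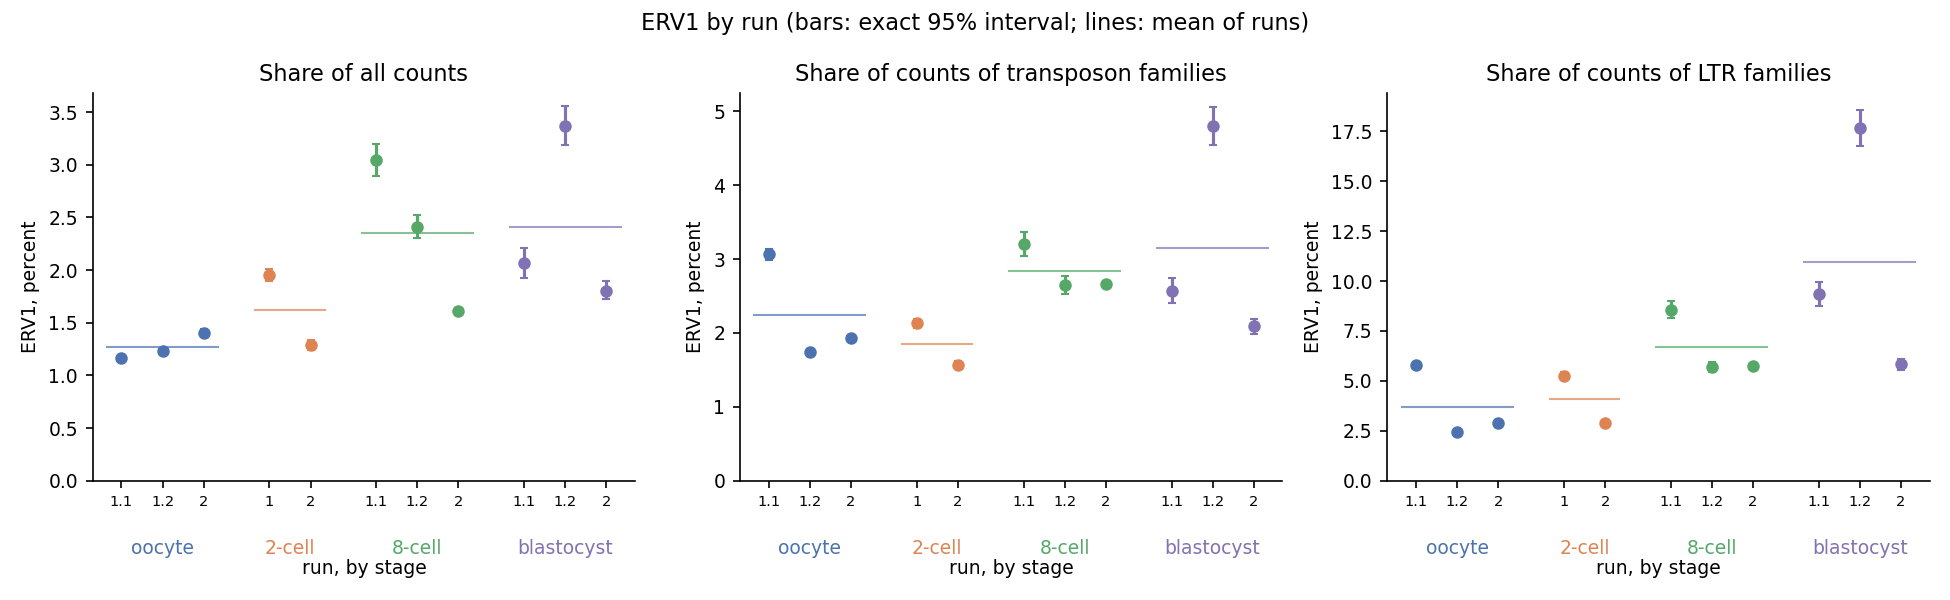
ERV1 in each run as percent of all counts (left), of transposon counts (middle) and of LTR counts (right), with exact 95% intervals of counting error and a line at the mean of the runs of a stage. All 8-cell and blastocyst runs exceed the oocyte runs on the left, the order is lost in the middle, and blastocyst run 1.2 stands highest in all 3 panels, at 3.37%, 4.80% and 17.7%.

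Stage means of ERV1, with runs weighted equally, ordered as 1.27% in the oocyte, 1.62% in the 2-cell embryo, 2.36% in the 8-cell embryo and 2.41% in the blastocyst. A family was said to rise or fall when its stage means differed at least 2-fold and the runs of both stages did not overlap. ERV1 did not pass this rule for its share of all counts in any of the 6 comparisons between stages. The blastocyst mean was 1.90 times the oocyte mean and the 8-cell mean 1.86 times the oocyte mean, both with separate runs. Runs lay above those of the oocyte for 34.0% of the 47 families in the blastocyst and for 23.4% in the 8-cell embryo. The median ratio over the 47 families was 1.90 for blastocyst over oocyte, which is the ratio of ERV1 itself, at rank 24. For 8-cell over oocyte the median was 1.70 and ERV1 had rank 21. Leaving out oocyte run 2 gave a blastocyst to oocyte ratio of 2.01, without blastocyst run 1.1 it was 2.04 and without blastocyst run 2 it was 2.14, each of which passed. Without 8-cell run 2, the ratio of 8-cell embryo to oocyte was 2.15, which also passed.

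The remaining ratios of ERV1 were smaller, and their runs overlapped. The 2-cell mean was 1.28 times the oocyte mean, the 8-cell mean 1.45 times the 2-cell mean, the blastocyst mean 1.02 times the 8-cell mean and 1.49 times the 2-cell mean. For 8-cell over 2-cell the ratio of pooled counts was 1.06 (exact Poisson 95% interval 1.03 to 1.09), since 8-cell run 2 holds most 8-cell counts and had the lowest ERV1 share of that stage. These shares come from whole oocytes and embryos, in which more cells of a type and more RNA per cell cannot be told apart. A difference between the blastocyst and the 8-cell embryo was not seen beyond the spread of runs.

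**Figure D2:**
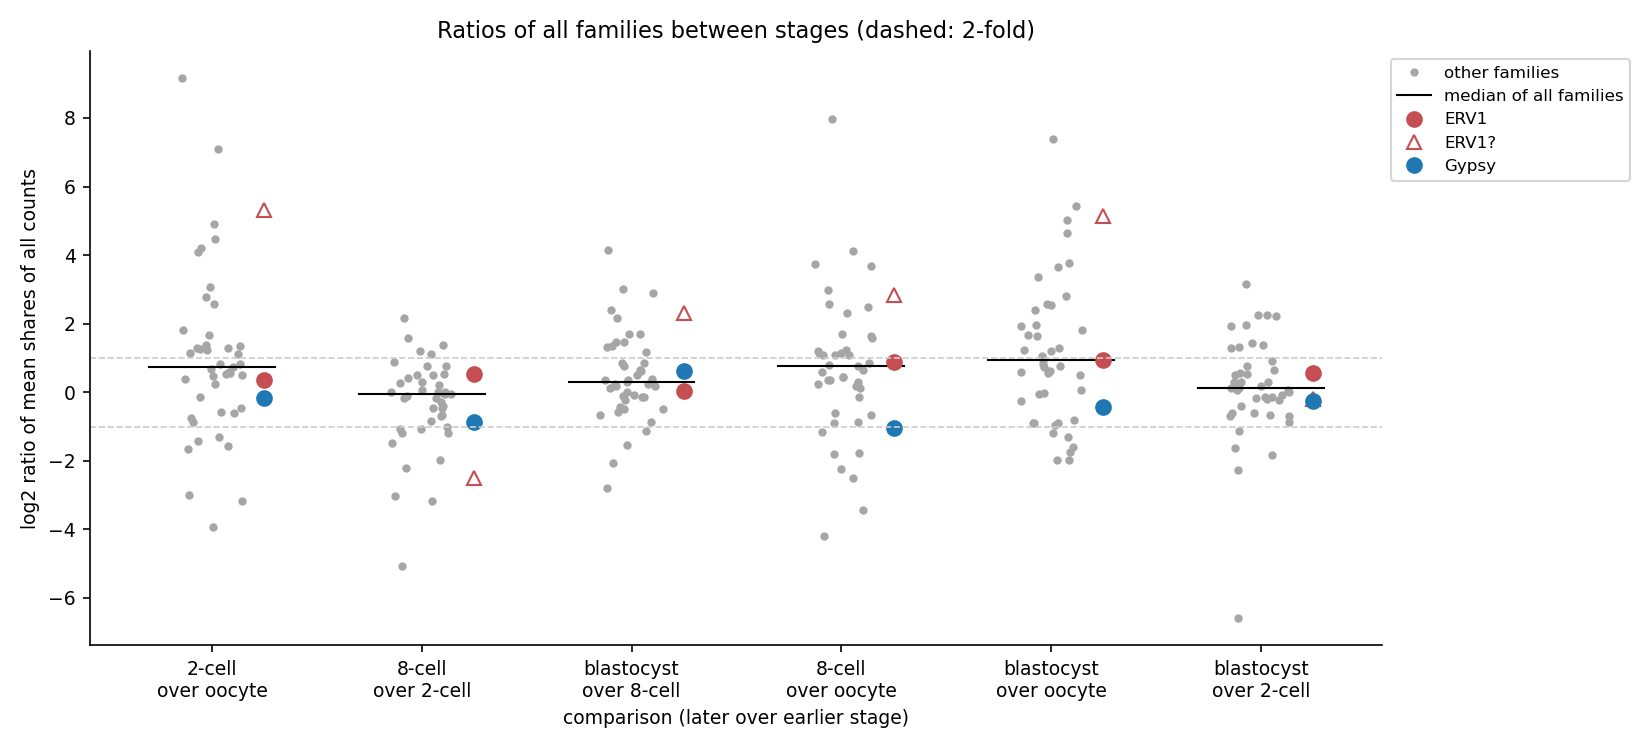
log2 ratio of the mean share of all counts, later over earlier stage, for the families of the table (grey) with ERV1, ERV1? and Gypsy in colour and the median of all 47 families as a black line. Gypsy? is left out because of its low counts, and ERV1 is itself the median family for blastocyst over oocyte, at a ratio of 1.90.

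The order of the stages depended on the set of families that ERV1 was counted against. As a share of transposon counts ERV1 made up 3.06%, 1.74% and 1.93% of oocyte runs 1.1, 1.2 and 2 and 2.13% and 1.57% of 2-cell runs 1 and 2. It made up 3.20%, 2.65% and 2.66% of 8-cell runs 1.1, 1.2 and 2 and 2.57%, 4.80% and 2.09% of blastocyst runs 1.1, 1.2 and 2. Oocyte run 1.1, which had 44.9% rRNA, was the lowest oocyte run by all counts and the highest by transposon counts. With RNA gene families such as rRNA left out of all counts, the 2-cell, 8-cell and blastocyst means of ERV1 were 1.02, 1.51 and 1.63 times the oocyte mean. By all counts these ratios were 1.28, 1.86 and 1.90. The part of rRNA alone in the differences between stages was not tested. By transposon counts the 8-cell runs lay above both 2-cell runs, at a ratio of means of 1.53. Separate runs in this direction were found for 5.88% of the 34 transposon families, ERV1 among them. By transposon counts no comparison with the oocyte had separate runs, and the ratio of blastocyst to oocyte was 1.41. The 2-cell mean lay below the oocyte mean by transposon counts, at a ratio of 0.825, but above it by all counts.

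Among LTR families alone, ERV1 took a larger share in the blastocyst than in the oocyte or the 2-cell embryo. It held 5.78%, 2.42% and 2.88% of LTR counts in oocyte runs 1.1, 1.2 and 2, while 2-cell runs 1 and 2 gave 5.27% and 2.87%. The 8-cell runs 1.1, 1.2 and 2 gave 8.57%, 5.70% and 5.75%, and blastocyst runs 1.1, 1.2 and 2 gave 9.33%, 17.7% and 5.82%. Blastocyst run 2 lay only just above the highest oocyte run, by intervals of 5.56% to 6.10% and 5.65% to 5.92% that overlap. The blastocyst mean was 10.9% against 3.70% in the oocyte, a rise of 2.96-fold that passed the rule, and 4.07% in the 2-cell embryo, a rise of 2.69-fold. Of the 9 LTR families 66.7% rose in the blastocyst over the oocyte and 22.2% over the 2-cell embryo, ERV1 among them in both. Over the oocyte the others were ERVL and the small rows ERV1?, Gypsy?, ERVL? and LTR, with 141, 73, 54 and 13 counts in all. Over the 2-cell embryo the only other was the row named LTR, with 3 counts against 2. By LTR counts the 8-cell runs also lay above both 2-cell runs, at a ratio of 1.64 that did not pass. ERV1 was the only LTR family, 11.1% of the 9, with separate runs in this direction. The rise over the oocyte passed with any single run left out, at ratios from 2.05 without blastocyst run 1.2 to 4.13 without oocyte run 1.1. Without blastocyst run 1.2 the ratio of blastocyst to 2-cell embryo was 1.86, which did not pass.

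The share of MaLR in the same denominator was lower in the blastocyst than in the oocyte, but overlapped between the blastocyst and the 2-cell embryo. MaLR held 46.0%, 35.3% and 30.5% of LTR counts in blastocyst runs 1.1, 1.2 and 2, against 64.3%, 75.1% and 74.4% in oocyte runs 1.1, 1.2 and 2. In 2-cell runs 1 and 2 it held 42.2% and 36.8%. With MaLR left out of the denominator, ERV1 held 17.7% in the blastocyst (8.38% to 27.3%) and 12.4% in the oocyte (9.74% to 16.2%), a ratio of 1.42 with overlapping runs. The 8-cell embryo then had 12.4% (7.89% to 16.5%) and the 2-cell embryo 6.82% (4.54% to 9.11%). The blastocyst mean was then 2.59 times the 2-cell mean, also with overlapping runs. The part of MaLR in the rises of ERV1 by LTR counts was not tested.

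Set against single families of the same run, ERV1 gave a separate picture for each. Per 100 MaLR counts oocyte runs 1.1, 1.2 and 2 had 8.99, 3.23 and 3.87 counts of ERV1 and 2-cell runs 1 and 2 had 12.5 and 7.81. The 8-cell runs reached 17.8, 10.4 and 21.2 counts, and blastocyst runs reached 20.3, 50.1 and 19.1. All 8-cell and blastocyst runs were higher than all oocyte runs, at ratios of means of 3.07 and 5.57. For the 8-cell embryo and blastocyst over the oocyte, MaLR itself had ratios of 0.548 and 0.301 by all counts, the first with overlapping runs. The share of families with separate runs when set against a single family was not computed. Per 100 ERVK counts oocyte runs had 20.7, 13.6 and 14.9 counts of ERV1 and 2-cell runs had 14.5 and 9.56. The 8-cell runs then had 34.7, 23.6 and 15.3 counts, with 29.3, 46.2 and 16.9 for the blastocyst. Both 2-cell runs were lower than all 8-cell and blastocyst runs on this scale, and the oocyte overlapped with every stage.

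Per 100 ERVL counts, ERV1 had 289, 53.7 and 87.4 in oocyte runs 1.1, 1.2 and 2, whereas 2-cell runs 1 and 2 gave 32.7 and 9.48. The 8-cell runs gave 46.3, 37.8 and 19.5, while blastocyst runs 1.1 and 1.2 gave 73.9 and 206 and run 2 gave a value close to the lowest 8-cell run. The 2-cell and 8-cell runs all lay below the oocyte runs, at ratios of means of 0.147 and 0.241. By all counts ERVL itself rose over the oocyte in both stages, at ratios of 6.81 and 4.93. The blastocyst runs spread across the range of the other 3 stages.

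**Figure D3:**
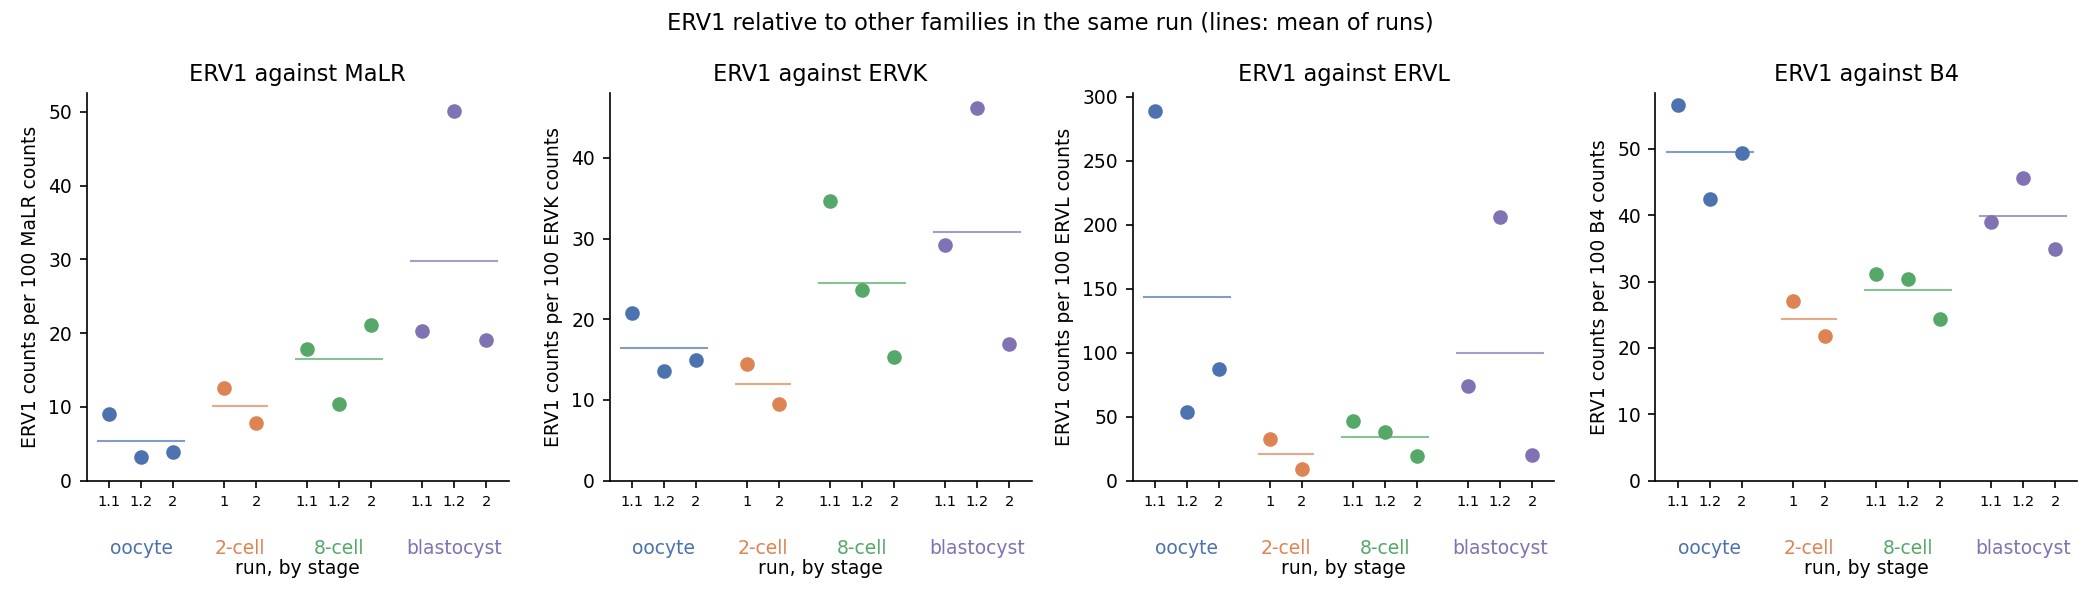
ERV1 counts per 100 counts of MaLR, ERVK, ERVL and the SINE family B4 in the same run, with a line at the mean of the runs of a stage. By stage mean, ERV1 against MaLR is lowest in the oocyte (3.23 to 8.99), ERV1 against ERVL is lowest in the 2-cell and 8-cell embryo, and ERV1 against B4 is highest in the oocyte (42.5 to 56.6).

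The family whose share of transposon counts was most like that of ERV1 over the 11 runs was B4, a SINE, which are short elements moved by LINE proteins. The Pearson correlation of log2 shares was 0.603 for B4, 0.578 for LINE-1 (L1) and 0.572 for the row named RNA, out of 39 families with at least 100 counts. The lowest was -0.546, for the old LINE family CR1. These are descriptions over runs of 4 samples, which share libraries and depth. Per 100 B4 counts, ERV1 ranged over 42.5 to 56.6 counts among oocyte runs, 21.8 to 27.1 among 2-cell runs, 24.4 to 31.2 among 8-cell runs and 34.9 to 45.6 among blastocyst runs. Relative to B4 the oocyte runs lay above all 2-cell and 8-cell runs, and the blastocyst runs above those of both cleavage stages. Per 100 L1 counts, ERV1 had 12.3 to 15.3 in the oocyte, 6.48 to 8.76 in the 2-cell embryo, 9.59 to 17.0 in the 8-cell embryo and 5.53 to 11.5 in the blastocyst. Relative to L1 the 2-cell and blastocyst runs lay below all oocyte runs, at ratios of means of 0.563 and 0.555. The 8-cell runs overlapped with the oocyte runs there.

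Some stages were read in the same sequencing run, as the read names show, which allowed ERV1 to be compared without a change of sequencing run. Blastocyst run 1.2 had 3.37% of all counts and the mean of oocyte runs 1.1 and 2 was 1.28%, a ratio of 2.62. By LTR counts these were 17.7% and 4.33%, a ratio of 4.08. 8-cell run 1.2 and oocyte run 1.2 had 2.41% and 1.24% of all counts, a ratio of 1.95. 8-cell run 2 and 2-cell run 2 had 1.61% and 1.29%, a ratio of 1.25, and by LTR counts 5.75% and 2.87%, a ratio of 2.00. All 3 of these ratios by all counts had the direction of the stage means. No sequencing run held the 2-cell embryo with the oocyte, or the blastocyst with the 2-cell or 8-cell embryo, and there the stage cannot be told apart from the sequencing run. The median read score lay between 35 and 53 for the oocyte, at 24 and 43 for the 2-cell embryo, between 16 and 54 for the 8-cell embryo and between 15 and 32 for the blastocyst. The part of the score in the differences between stages was not tested.

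Gypsy was rare, and its runs differed more within the oocyte and within the 8-cell embryo than the means of any pair of stages did. It had 9 counts in oocyte run 1.1, 655 in run 1.2 and 93 in run 2, which are 0.00160% (0.000731% to 0.00303%), 0.0341% (0.0316% to 0.0368%) and 0.0246% (0.0199% to 0.0302%) of all counts. Oocyte run 1.2 had a share 21.3 times that of run 1.1. The 2-cell runs 1 and 2 had 56 and 28 counts, or 0.0241% (0.0182% to 0.0313%) and 0.0114% (0.00758% to 0.0165%). The 8-cell runs 1.1, 1.2 and 2 had 6, 13 and 10 counts. Since run 2 was the deepest 8-cell run, these are 0.0123% (0.00452% to 0.0268%), 0.0162% (0.00865% to 0.0278%) and 0.000799% (0.000383% to 0.00147%). Blastocyst runs 1.1, 1.2 and 2 had 8, 4 and 14 counts, or 0.0193% (0.00832% to 0.0380%), 0.0108% (0.00295% to 0.0277%) and 0.0149% (0.00814% to 0.0250%). The blastocyst intervals overlap each other, so that differences among its runs were not detectable at this depth.

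The low shares of Gypsy in oocyte run 1.1 and 8-cell run 2 were well outside the counting error of the other runs of these stages. In oocyte run 1.1 the Gypsy share of transposon counts was 0.103 times the mean of oocyte runs 1.2 and 2, the third lowest of 27 transposon families with at least 100 counts, whose median was 0.658. In 8-cell run 2 it was 0.0856 times the mean of runs 1.1 and 1.2, the second lowest of the 27, with a median of 0.721. Both runs were singled out after their values were seen. They had the highest rRNA shares of the 11 runs, and the part of rRNA in their Gypsy shares was not tested. Within the sequencing run that oocyte runs 1.1 and 2 share, Gypsy had 9 and 93 counts.

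Stage means of the Gypsy share of all counts were 0.0201% in the oocyte, 0.0178% in the 2-cell embryo, 0.00979% in the 8-cell embryo and 0.0150% in the blastocyst. Runs overlapped in all 6 comparisons, so that Gypsy neither rose nor fell by the rule. The largest difference was a ratio of 0.486 for 8-cell embryo over oocyte. Without oocyte run 1.1 it was 0.333 with separate runs, a fall by the rule, while without 8-cell run 2 it was 0.710, with overlapping runs. The ratio of 8-cell over 2-cell embryo was 0.551, and 0.406 with separate runs without 2-cell run 2. From pooled counts the 8-cell embryo had 0.0793 times the oocyte share (exact Poisson 95% interval 0.0528 to 0.115), with 29 counts against 757, a value set by the 2 deepest runs of the series.

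By LTR counts Gypsy had 0.00795%, 0.0669% and 0.0506% in oocyte runs 1.1, 1.2 and 2, whereas 2-cell runs 1 and 2 gave 0.0652% and 0.0254%. The 8-cell runs had 0.0347%, 0.0384% and 0.00285%, below all blastocyst runs at 0.0871%, 0.0569% and 0.0481%. The blastocyst mean of 0.0640% was 2.53 times the 8-cell mean of 0.0253%, with separate runs. Of the 9 LTR families 33.3% rose here, namely Gypsy and the small rows ERV1? and ERVL?. The rise of Gypsy rests on 26 blastocyst and 29 8-cell counts, and the intervals of the nearest runs overlap, at 0.0263% to 0.0806% in blastocyst run 2 and 0.0204% to 0.0656% in 8-cell run 1.2. Without 8-cell run 2 the ratio was 1.75, which did not pass. By transposon counts the runs of blastocyst and 8-cell embryo overlapped.

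**Figure D4:**
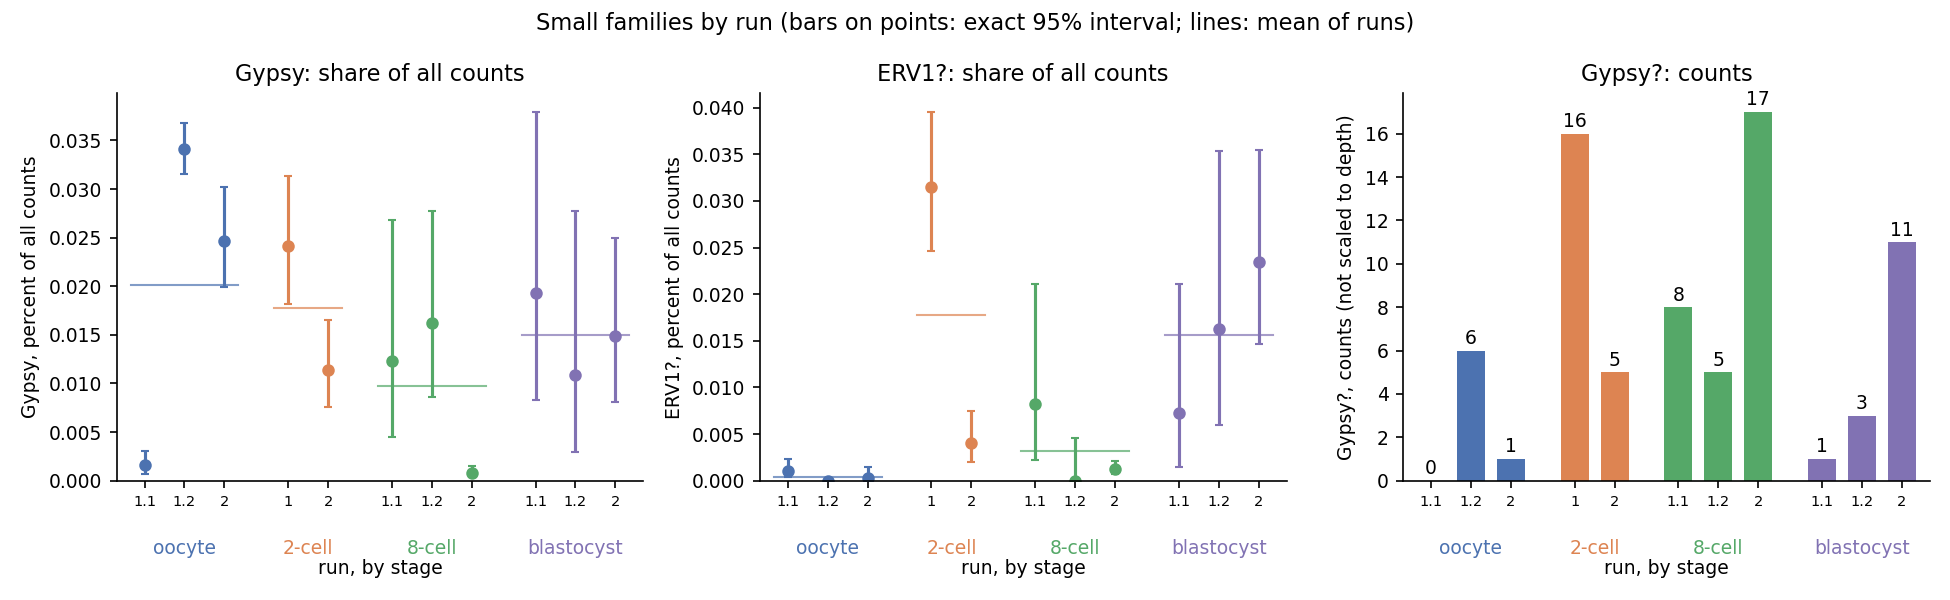
Gypsy (left) and ERV1? (middle) as percent of all counts in each run, with exact 95% intervals and a line at the mean of the runs of a stage, and Gypsy? (right) as counts that are not scaled to depth. Gypsy is low in oocyte run 1.1 and 8-cell run 2, ERV1? is highest in 2-cell run 1 at 73 counts, and Gypsy? reaches at most 17 counts in a run.

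Over the 11 runs the families most like Gypsy were the row named Other, with a Pearson correlation of log2 shares of transposon counts of 0.865, the row named SINE at 0.790 and the old LINE family RTE at 0.760. The lowest was Tip100, a DNA transposon family, at -0.637. The SINE row, whose total of 912 counts is also the nearest above that of Gypsy, had 4 counts in oocyte run 1.1, 534 in oocyte run 1.2 and 48 in 8-cell run 2. It was thus low in the same oocyte run. Its share of all counts was also low in 8-cell run 2, at 0.00383% against 0.0164% and 0.0175% in 8-cell runs 1.1 and 1.2. The RNA row, nearest below with 885 counts, had 65, 417 and 54 counts in the oocyte runs.

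ERV1? had 6, 0 and 1 counts in oocyte runs 1.1, 1.2 and 2, whereas 2-cell runs 1 and 2 gave 73 and 10. The 8-cell runs 1.1, 1.2 and 2 gave 4, 0 and 16 counts, and blastocyst runs 1.1, 1.2 and 2 gave 3, 6 and 22. The 2-cell shares were 0.0314% (0.0246% to 0.0395%) in run 1 and 0.00407% (0.00195% to 0.00749%) in run 2, so that run 1 held 7.72 times the share of run 2. Blastocyst runs 1.1, 1.2 and 2 had 0.00722%, 0.0163% and 0.0234%, while the oocyte runs had at most 0.00107%. The 0 counts in oocyte run 1.2 and in 8-cell run 1.2 have exact intervals that reach up to 0.000192% and 0.00461%, while the simpler limit of 3 counts of the total is 0.000156% and 0.00375%. By LTR counts ERV1? held at most 0.0853% in any run.

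The blastocyst had 31 counts of ERV1? in 172430, against 7 in 2859904 in the oocyte. The ratio of pooled shares was 73.5 (exact Poisson 95% interval 31.7 to 198). The 2-cell embryo had 83 counts in 477619, a pooled ratio to the oocyte of 71.0 (33.0 to 182), with 73 of the 83 counts from run 1. The 8-cell embryo had 20 counts in 1380877. Its runs overlapped with both the oocyte and the 2-cell runs. The 2-cell embryo against the blastocyst turned on single runs, since the blastocyst mean was 3.84 times the 2-cell mean without 2-cell run 1, a rise, and 0.497 times it without 2-cell run 2, a fall. Without 8-cell run 1.1 the 8-cell embryo fell below the 2-cell embryo, at a ratio of 0.0360, and without 2-cell run 2 it did so at 0.101. Without 8-cell run 1.1 the blastocyst rose over the 8-cell embryo at a ratio of 24.5, and without blastocyst run 1.1 at 6.27. Without 8-cell run 1.2, which had 0 counts, the 8-cell embryo rose over the oocyte, at a ratio of 10.7. The nearest runs were then 8-cell run 2 at 0.00128% (0.000730% to 0.00208%) and oocyte run 1.1 at 0.00107% (0.000391% to 0.00232%). Their intervals overlap. The share of all families that pass with a run left out is not given here.

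Gypsy?, with 73 counts in all, is given as counts alone. It had 0, 6 and 1 counts in oocyte runs 1.1, 1.2 and 2, which held 563012, 1919263 and 377629 counts in all. The 2-cell runs 1 and 2 had 16 and 5 counts in totals of 232146 and 245473. The 8-cell runs had 8, 5 and 17 counts in totals of 48685, 80059 and 1252133, and the blastocyst runs 1, 3 and 11 in totals of 41528, 36922 and 93980. The oocyte thus had 7 counts in the largest total of the 4 stages.

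By all counts ERV1? rose in the 2-cell embryo over the oocyte, where 31.9% of the 47 families rose and 8.51% fell. Its stage means were 0.0178% in the 2-cell embryo and 0.000444% in the oocyte, a ratio of 40.04. Leaving out single runs gave ratios from 9.19 without 2-cell run 1 to 134 without oocyte run 1.1, with 70.9 without 2-cell run 2. ERV1? also rose in the blastocyst over the oocyte, at means of 0.0156% and 0.000444% and a ratio of 35.2, where 27.7% of families rose and 6.38% fell. Here single runs left out gave ratios from 23.5 without oocyte run 1.2 to 118.03 without oocyte run 1.1. Both rises passed the rule with any single run left out, and each rests on fewer than 100 counts over both stages. The nearest oocyte run in both was run 1.1, with 6 counts and an interval of 0.000391% to 0.00232%. That interval overlaps those of 2-cell run 2 (0.00195% to 0.00749%, 10 counts) and blastocyst run 1.1 (0.00149% to 0.0211%, 3 counts).

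In no other comparison by all counts did ERV1, ERV1? or Gypsy rise or fall. Of the 47 families 17.0% rose and 6.38% fell in the 8-cell embryo over the oocyte, and 2.13% rose and 8.51% fell in the 8-cell over the 2-cell embryo. In the blastocyst 8.51% rose and 4.26% fell over the 8-cell embryo, and 10.6% rose and 2.13% fell over the 2-cell embryo.

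The rises of ERV1? over the oocyte were also made on the other scales. By transposon counts ERV1? rose in the 2-cell embryo over the oocyte, where 20.6% of 34 families did, and in the blastocyst over the oocyte, where 26.5% did. By LTR counts it rose in the 2-cell embryo over the oocyte, where 44.4% of the 9 families did, and in the blastocyst over the oocyte, where 66.7% did. On both of these scales ERV1? rose in the blastocyst over the 8-cell embryo as well, as 11.8% of transposon families and 33.3% of LTR families did. Each of these percentages counts ERV1? itself. By transposon counts the nearest runs were blastocyst run 1.1 at 0.00901%, with 3 counts, and 8-cell run 1.1 at 0.00864%, with 4. By LTR counts these runs had 0.0327% and 0.0231%, and their intervals overlap on both scales. By all counts blastocyst run 1.1 lay below 8-cell run 1.1, at 0.00722% and 0.00822%.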

How the data were processed

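Read counts per repeat family and run were used as deposited by the authors, 1 column per run. Per the submitters' processing notes CASAVA and the build mm9 were used, with no role given. Which repeat annotation was used, and how a read placed at several sites was counted, is not given in the sources used here. Each run had 0.797 to 2.07 counts per line of the read files. The score of each placement was deposited by the authors without its scale and served only for run medians, and read names gave the sequencing run. No repeat is named in the read files, so positions and sequences of ERV1 or Gypsy copies were not analysed here.

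Shares were taken of a run's counts over 47 families, over 34 transposon families (LINE, SINE, LTR and DNA, assigned from general knowledge of repeat names) or over 9 LTR families. Stage values are means of runs. The call needs a 2-fold difference of means and separate runs, and it takes the place of a test, since each stage is 1 sample. Correlations used log2 shares with 0.5 counts added. The members, the lists and the named families (the 4 rows, the LTR families, the most and least alike, and those of nearest total count) were chosen with earlier results of these data known. The calculation was checked on simulated counts, with changes put into larger families and no spread of runs beyond counting error. That check does not cover Gypsy, ERV1? or Gypsy?, or the spread of runs seen here. Python 3.11.15, NumPy 2.4.6, pandas 2.3.3 and SciPy 1.17.1 were used.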

Additional observations from a re-analysis of the deposited data

How the results depend on the processing

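Ratios are later over earlier stage. For the share of all counts of ERV1 and Gypsy, 102 values under other scalings, averages, limits or one sequencing run were computed, of which 84 kept direction and call, 8 passed the rule and 10 turned to the other side of 1. The 1.5-fold limit reuses the main ratio, so its values could not turn. Values that kept direction and call could still differ in size. Pooled counts gave Gypsy 7.18 against 1.53 for blastocyst over 8-cell, and 0.0793 against 0.486 for 8-cell over oocyte. The ERV1 ratio of 2-cell to oocyte, 1.28, was 0.825 by transposon counts and 0.759 with size factors. Its ratio of blastocyst to 8-cell, 1.02, was 0.905 with size factors and 0.855 with medians of runs. ERV1 passed by LTR counts for blastocyst over oocyte (2.96) and over 2-cell (2.69), within one sequencing run for blastocyst over oocyte (2.62), and at a 1.5-fold limit for 8-cell (1.86) and blastocyst (1.90) over oocyte. Gypsy turned by LTR counts for 2-cell over oocyte (1.08), blastocyst over oocyte (1.53) and blastocyst over 2-cell (1.41). With Gypsy? added these were 1.09, 1.103 and 1.01. Gypsy passed by LTR counts for blastocyst over 8-cell (2.53) and within one sequencing run for 8-cell over 2-cell (0.0700) and over oocyte (0.476), each with 1 run a stage. The cause of these changes was not tested.

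Leaving out 1 run at a time, ERV1 ranged from 1.02 to 1.54 for 2-cell over oocyte, 1.21 to 1.83 for 8-cell over 2-cell, 0.821 to 1.198 for blastocyst over 8-cell, 1.59 to 2.15 for 8-cell over oocyte, 1.53 to 2.14 for blastocyst over oocyte and 1.19 to 1.87 for blastocyst over 2-cell. Gypsy ranged from 0.567 to 1.35, 0.369 to 0.858, 1.05 to 2.29, 0.326 to 0.746, 0.511 to 1.14 and 0.622 to 1.31 in the same order.

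Alternatives for the 3 rises by LTR counts were chosen after seeing the data. Without MaLR in the denominator none passed, at 1.42 for ERV1 in blastocyst over oocyte, 2.59 for ERV1 in blastocyst over 2-cell and 2.04 for Gypsy in blastocyst over 8-cell. Gypsy also did not pass with Gypsy? added (1.998) or with medians of runs (1.64). Leaving out runs gave 2.05 to 4.13, 1.86 to 3.81 and 1.75 to 3.41. No paired analysis was possible because each stage is 1 sample. The counts of Gypsy, ERV1? and Gypsy? limit what their shares can show in the shallow runs.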
